A study of Mus musculus with 16 samples.

Results

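The transcripts of 31 genes of glucose breakdown and of the hypoxia response were followed in mouse embryonic stem cells before, during and after exposure to auxin. The genes were chosen by name with earlier results of these data known, so counts and medians over them carry no test. They comprise 14 glycolytic enzymes, 4 transporters of glucose or lactate, 12 targets of the hypoxia-inducible factor (HIF) and Hif1a. Hif1a encodes the oxygen-regulated subunit of that factor. All 31 are among the 14552 genes of the table, and all 31 were among the 13355 genes with a mean of at least 10 normalized counts that entered the tests.

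RNA was sequenced from cells of the E14 line, a mouse embryonic stem cell line, and every group had the genotype Ddx10-AID, Tir1. The AID tag is a degron, and Tir1 is the plant receptor through which auxin sends a tagged protein to degradation. Ddx10 encodes an RNA helicase of ribosome assembly. Cells were collected untreated, after 2, 4, 6 or 12 h or 1 or 2 days with 500 µM of the auxin indole-3-acetic acid, and after 2 days with auxin followed by 2 days without it, which is called withdrawal here. Each of these 8 groups had 2 libraries, 16 in all, and all cells grew in serum medium rich in glucose, with pyruvate, LIF and inhibitors of GSK3 and MEK. Whether replicate libraries are from separate cultures is not in the labels, so a p-value here reflects the spread between libraries, which may be technical. Cells without the tag but with auxin were not analysed here, so auxin itself and the loss of DDX10 cannot be told apart. The sources used here do not give the oxygen level, the promoter of Tir1 or whether the line is 1 clone. The degron acts on the DDX10 protein, which these RNA data do not measure. The RNA came from bulk cultures, in which fewer cells of a type and less RNA per cell cannot be told apart.

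Glycolysis splits glucose into pyruvate in the cytosol and yields ATP. Lactate dehydrogenase then turns pyruvate into lactate, which leaves the cell through monocarboxylate transporters. HIF joins an oxygen-regulated alpha subunit to a constant partner. When oxygen is present, prolyl hydroxylases such as those encoded by Egln1 and Egln3 mark the alpha subunit for destruction. When oxygen is low, the factor accumulates and raises many glycolytic genes together with genes that restrain mitochondrial use of pyruvate, such as Pdk1. Several glycolytic genes are therefore textbook HIF targets too, so the classes used here overlap in biology though not in membership. Mouse embryonic stem cells in this kind of medium use both glycolysis and respiration.

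The libraries held an estimated 13.6 M to 17.5 M reads in genes. The median log2 change over all tested genes lay between -0.017 and 0.023 in the 11 comparisons made. A gene is called higher or lower where its adjusted p in the limma model over all 16 libraries was below 0.05, and "rose" and "fell" are used only of such calls. The standard error (SE) of a member's log2 change had a median of 0.0986, against 0.158 over all genes tested. The 2 untreated libraries differed more from each other than those of other groups, with a standard deviation (SD) of the log2 difference of 0.619 over all genes and 0.407 over the members, against 0.414 and 0.0789 in the withdrawal group. The 8 libraries of 2 to 12 h lay all above or all below the other 8 for 7.60% of genes and for 0 of the 31 members. At that share only few of 31 genes would be expected. The criterion also misses any gene whose early values lie between those of untreated and of 2 days. The count of 0 therefore does not show that the members are free of an early offset. Levels are in normalized counts unless a sentence says otherwise.

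**Figure D1:**
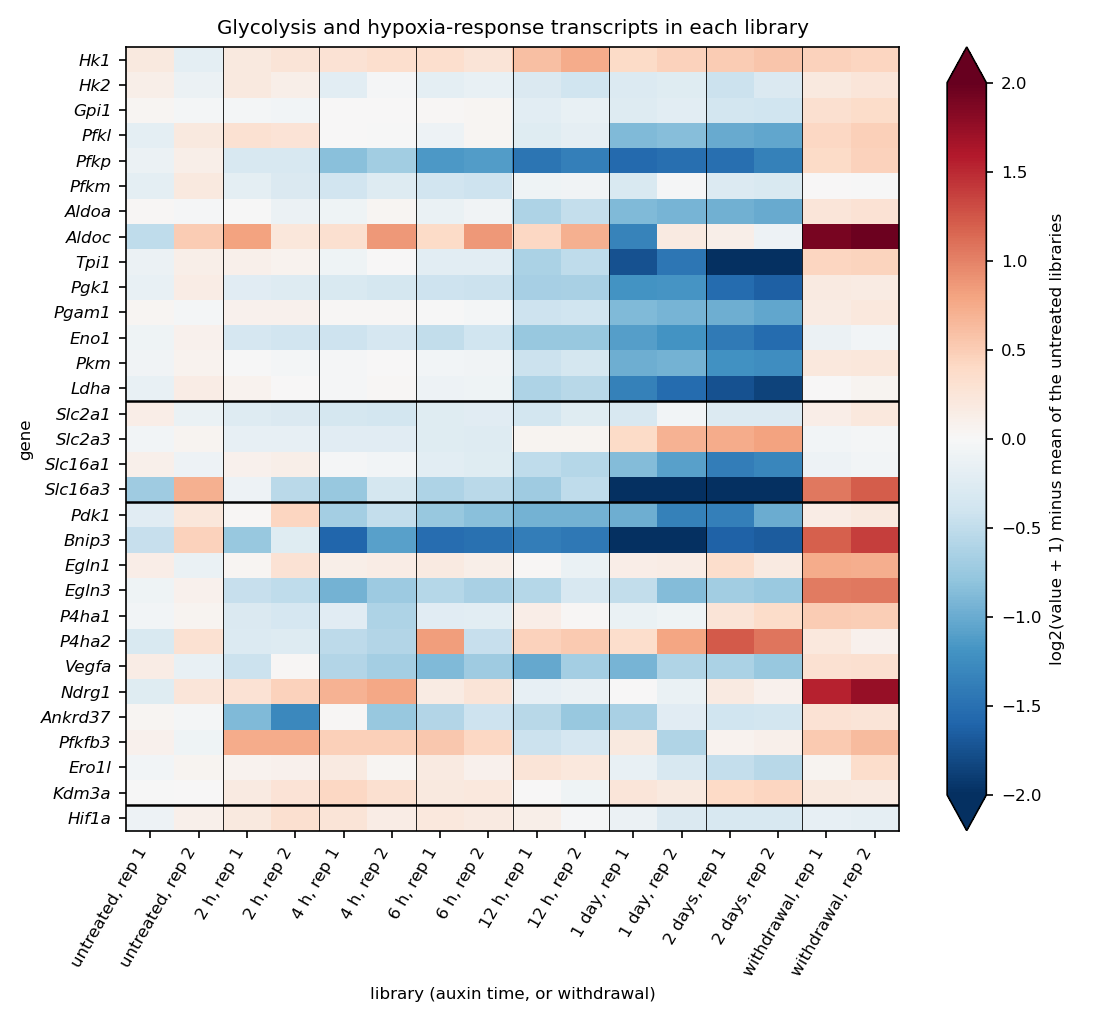
Log2(value + 1) of each of the 31 members (rows) in each of the 16 libraries (columns), less the mean of the 2 untreated libraries; colours end at 2 in either direction and black lines part the enzymes, transporters, HIF targets and Hif1a. The enzyme block turns low from 12 h to 2 days, whereas the HIF targets are mixed, and both withdrawal libraries are above the untreated mean in most rows.

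The start regions of the members were read first, because a hypoxia-response element is the DNA motif through which HIF acts. RefSeq promoters on GRCm38.p6 were found for 29 of the 31 members, 45 promoters in all, each with 250 bases before and 50 after a start site. The core of the element was searched as ACGTG and as GCGTG on both strands. ACGTG is also part of the E-box CACGTG, which other factors bind. A core was present in 35 of the 45 promoters (77.8%), against 61.2% of the 13452 promoters of genes in the table and 43.8% of all 32851 promoters. ACGTG alone was in 55.6% of the members' promoters, in 24.9% of those of genes in the table and in 19.6% of all. The E-box was in 13.3% of them, in 9.95% and in 7.15%. The members' promoters were also richer in G and C, with a median of 64.7% against 60.7% and 52.7%, and both cores contain CG. Because 12 members were listed as HIF targets, a higher share of cores is expected from that choice alone. Genes with several start sites count more than once. A core was in 76% of the 25 enzyme promoters and 75% of the 16 of HIF targets, and ACGTG in 44% and 62.5%. A match is a description of the letters in the window and not a binding site.

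The 250 bases before the start are shown for 3 members that fell and 1 that rose at 2 days, all on the plus strand of GRCm38.p6, with both cores in capitals on either strand. They are Pgk1 at chrX:106186850-106187099, Ldha at chr7:46845554-46845803 (the first of its start sites), Pdk1 at chr2:71872974-71873223 (the first of its start sites) and P4ha2 at chr11:54100674-54100923. None of these stretches overlaps an annotated exon in GENCODE M21. Those of Ldha and P4ha2 lie inside the genes as annotated there, which begin further upstream, at 46841475 and 54100095.
Pgk1: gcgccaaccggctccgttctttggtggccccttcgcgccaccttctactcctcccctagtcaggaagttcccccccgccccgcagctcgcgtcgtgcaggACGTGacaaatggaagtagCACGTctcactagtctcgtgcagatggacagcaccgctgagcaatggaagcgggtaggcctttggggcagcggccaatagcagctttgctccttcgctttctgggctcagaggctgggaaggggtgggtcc
Ldha: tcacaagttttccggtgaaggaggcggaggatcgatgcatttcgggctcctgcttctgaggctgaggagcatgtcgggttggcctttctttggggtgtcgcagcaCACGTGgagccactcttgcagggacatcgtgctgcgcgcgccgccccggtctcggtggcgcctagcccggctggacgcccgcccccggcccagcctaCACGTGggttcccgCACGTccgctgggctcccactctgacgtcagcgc
Pdk1: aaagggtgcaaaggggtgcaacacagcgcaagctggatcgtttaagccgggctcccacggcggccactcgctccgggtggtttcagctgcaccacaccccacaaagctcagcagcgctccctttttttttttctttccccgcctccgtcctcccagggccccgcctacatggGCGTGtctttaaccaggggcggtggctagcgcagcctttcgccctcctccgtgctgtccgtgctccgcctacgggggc
P4ha2: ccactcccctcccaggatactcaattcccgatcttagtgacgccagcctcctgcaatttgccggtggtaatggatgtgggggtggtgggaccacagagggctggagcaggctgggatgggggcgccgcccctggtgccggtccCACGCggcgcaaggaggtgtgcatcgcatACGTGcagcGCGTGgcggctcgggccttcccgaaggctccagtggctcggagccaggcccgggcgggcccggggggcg
Pgk1 holds 2 core positions in this stretch, Ldha 5, Pdk1 1 and P4ha2 3. In Ldha each E-box counts as a position on either strand. The Tpi1 promoter, of the enzyme gene with the largest fall, holds 0 core positions in its 300 bases.

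After 2 days with auxin most glycolytic enzyme transcripts had fallen, whereas the HIF targets were divided. Of the 14 enzyme genes 11 fell, 1 rose and 2 were not called, with a median log2 change of -1.02. Of the 12 HIF targets 5 fell, 2 rose and 5 were not called, with a median of -0.14, which was -0.23 without untreated replicate 1 and -0.09 with upper quartile scaling. Over all 31 members 20 fell and 4 rose. In this comparison 44.8% of all tested genes were called, 23.8% lower and 21.0% higher. The libraries of 2 days were below both untreated ones for 22 members and above both for 6, beside 36.5% and 34.6% of all genes. The 14 enzyme genes together held 1.30% and 1.44% of all normalized counts in the untreated libraries and 0.688% and 0.667% at 2 days.

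Tpi1 encodes triosephosphate isomerase, which interconverts the products of aldolase (gene on chromosome 6, positions 124810586 to 124814296, GRCm38). It stood at 4417 and 5248 untreated and at 1151 and 1145 after 2 days. Every library of 2 days was below both untreated ones, and the log2 change of -2.07 ± 0.10 (SE, n = 2 a group, adjusted p = 1.2e-08) was many times the spread between replicates. Ldha, for the lactate dehydrogenase subunit that favours lactate formation, went from 18500 and 22516 to 6128 and 5637, a log2 change of -1.80 ± 0.09 (adjusted p = 1.2e-08). Pgk1, for phosphoglycerate kinase, the first ATP-forming step, went from 12845 and 15812 to 4896 and 4576, a log2 change of -1.59 ± 0.08 (adjusted p = 1.3e-08). For these genes too, the groups did not overlap.

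The other enzymes that fell act at further steps of the pathway, not including that of Gapdh, which is not a member. Eno1, the main enolase, changed by -1.48 on the log2 scale, Pfkp, the platelet-type phosphofructokinase, by -1.43, and Pkm, pyruvate kinase, by -1.22. Pfkl (liver-type phosphofructokinase), Pgam1 (phosphoglycerate mutase) and Aldoa (the main aldolase) were at 48.9%, 49.6% and 50.6% of untreated. Smaller falls were those of Gpi1 (glucose-6-phosphate isomerase), at 76.7% of untreated, and of Hk2 (hexokinase 2), at 77.6%. Hk1, the other hexokinase, was the enzyme gene that rose, from 1520 and 1166 to 1890 and 1966, a log2 change of 0.53 ± 0.10 (adjusted p = 0.00089). Pfkm, the muscle-type phosphofructokinase, had a log2 change of -0.29 ± 0.12 (adjusted p = 0.064), and Aldoc, the brain-type aldolase, of 0.01 ± 0.43 (adjusted p = 0.98). All 12 of these enzyme calls held under each alternative analysis and each left-out library.

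**Figure D2:**
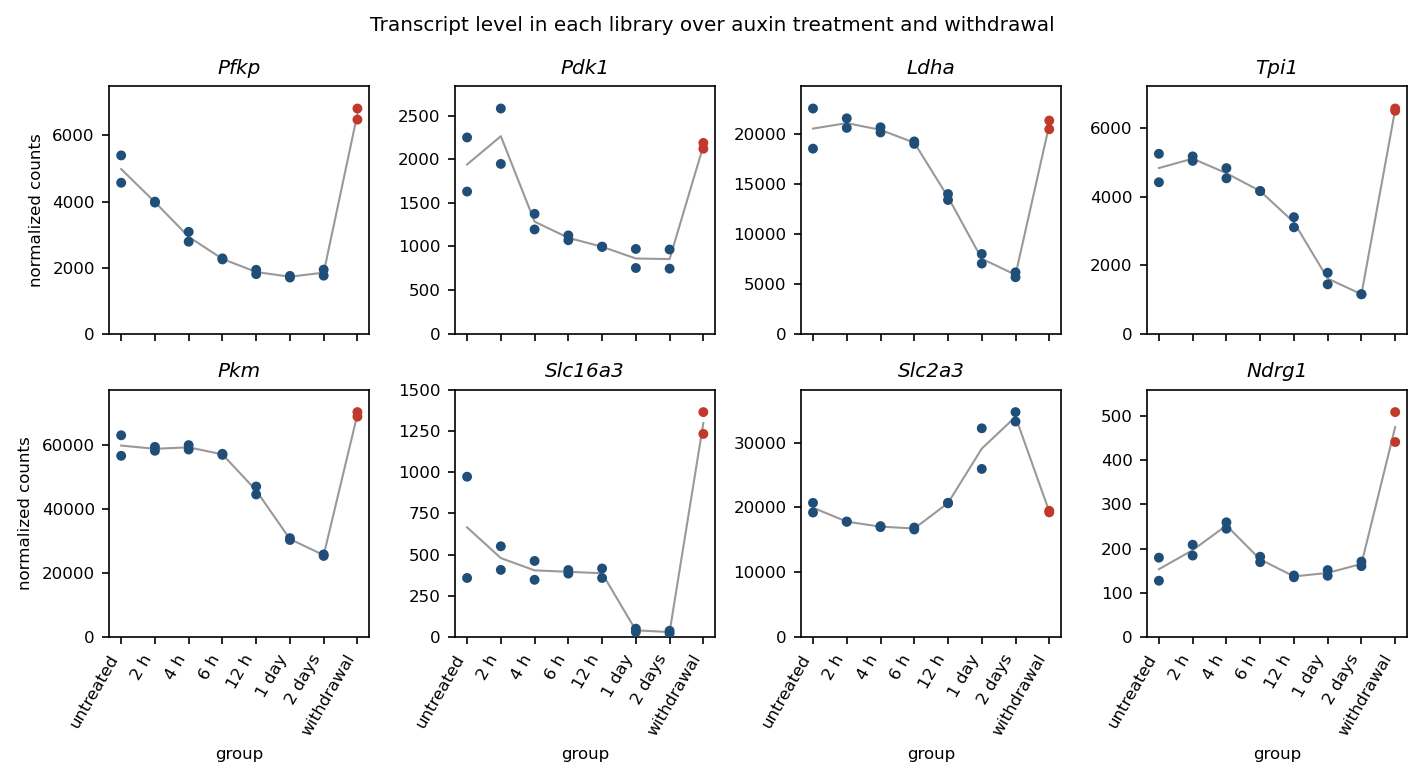
Normalized counts (vertical axis) of 8 members in each library by group (horizontal axis); points are libraries, lines join group means and red marks withdrawal. Pfkp and Pdk1 drop within hours, Ldha, Tpi1 and Pkm from 12 h onwards, Slc16a3 between 12 h and 1 day, Slc2a3 moves the other way, and Ndrg1 is highest after withdrawal.

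The genes did not all move at the same time. Pfkp was one of 2 enzymes called lower at 2 h, beside Eno1, and stayed low. Untreated libraries held 4568 and 5396, those of 2 h 3967 and 3996, those of 4 h 2783 and 3080, those of 6 h 2246 and 2278, and those of 12 h 1800 and 1931. Each of these pairs lay below the one before it. The 4 libraries of 1 and 2 days held between 1697 and 1937. Against untreated, the log2 change of Pfkp was -0.32 ± 0.09 at 2 h (adjusted p = 0.025), -0.76 at 4 h (adjusted p = 0.00011) and -1.13 at 6 h (adjusted p = 2.6e-06). The call at 2 h was lost without either library of 2 h (adjusted p = 0.11 and 0.13) or without untreated replicate 2 (0.14).

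Pkm and Ldha, in contrast, had no call through 6 h. Ldha was at 103% of untreated at 2 h, 99.4% at 4 h, 93.1% at 6 h, 66.6% at 12 h, 36.5% at 1 day and 28.7% at 2 days. The course of Tpi1 was 106%, 96.9%, 86.1%, 67.3%, 33.2% and 23.8%. Both were first called lower at 12 h. Pfkl was called lower first at 1 day, at 54.3% of untreated.

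The number of members called went from 5 at 2 h to 24 at 2 days. After 2 h, 3 members were lower and 2 higher, where 8.45% of all genes were called lower and 6.75% higher, 15.2% together. After 4 h, 9 were lower and 2 higher (10.2% and 8.86% of all genes, 19.1% together). After 6 h, 9 were lower and 1 higher (13.4% and 10.9%, 24.4% together). After 12 h it was 15 and 1 (18.3% and 14.8%, 33.1% together), and after 1 day 17 and 3 (17.7% and 15.9%, 33.6% together). The members' share was 16.1% after 2 h, near the background, then 35.5%, 32.3%, 51.6% and 64.5%, and 77.4% after 2 days. None of the 5 calls at 2 h held in every analysis in which 1 library was left out. Those calls were Pfkp and Eno1 (log2 change -0.36 ± 0.07, adjusted p = 0.0049), Ankrd37 (-1.08 ± 0.31, adjusted p = 0.031), Pfkfb3 (0.74 ± 0.19, adjusted p = 0.019) and Kdm3a (0.23 ± 0.06, adjusted p = 0.026). Of the 11 at 4 h, only Pfkp and Kdm3a (0.37 ± 0.06, adjusted p = 0.0014) held under every alternative. Of the 10 at 6 h it was Pfkp, Eno1, Pdk1 and Bnip3.

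Because the libraries of 2 to 12 h differ from the others in many genes, the later ones were also compared with those of 2 h. At 4 h against 2 h only Pfkp (log2 change -0.44 ± 0.09, adjusted p = 0.014) and Pdk1 (-0.81 ± 0.17, adjusted p = 0.026) of the 31 members were called, both lower, where 2.45% of all genes were called, 0.681% lower and 1.77% higher. Neither held without every single library, for instance without replicate 1 of 4 h (adjusted p = 0.15 for Pfkp and 0.19 for Pdk1). At 6 h against 2 h 5 members were lower and 0 higher (3.35% and 4.45% of all genes, 7.80% together). Pfkp (-0.82 ± 0.09, adjusted p = 7.1e-05) and Pdk1 (-1.03 ± 0.17, adjusted p = 0.0025) held in each alternative, and Hk2, Slc16a1 and Bnip3 did not. At 12 h against 2 h 17 members were lower and 2 higher (13.7% and 10.9% of all genes, 24.6% together), among them 10 of the 14 enzymes, with Pfkp (-1.09), Tpi1 (-0.65) and Ldha (-0.62) the furthest down. The 2 called higher were Hk1 (0.44 ± 0.10, adjusted p = 0.0071) and P4ha1 (0.38 ± 0.12, adjusted p = 0.038), and both calls were lost when some single libraries were left out. So the fall of the enzymes by 12 h was present also within the 8 early libraries.

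Isozymes of the same step diverged. Shares are given per kilobase of transcript, because longer transcripts collect more reads. Hk1 made up 25.9% and 23.8% of the summed level of the 2 hexokinases when untreated, 38.0% and 42.2% after 12 h, 38.8% and 37.4% after 2 days, and 28.3% and 27.3% on withdrawal. The share was higher at 12 h and 2 days than in any untreated or withdrawal library. Pfkp supplied 52.6% and 50.1% of the phosphofructokinase level untreated, 30.4% and 31.1% after 12 h, 38.0% and 40.8% after 2 days, and 53.0% and 53.6% on withdrawal. As Pfkp and Pfkl declined, the share of Pfkm, which was not called at 2 days, went from 15.9% and 16.9% to 28.3% and 27.1%. The summed per-kilobase level of the 3 phosphofructokinases had a mean of 2346 untreated, 1128 at 2 days and 3009 after withdrawal. Aldoc made up at most 0.391% of the aldolase level in any library.

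**Figure D3:**
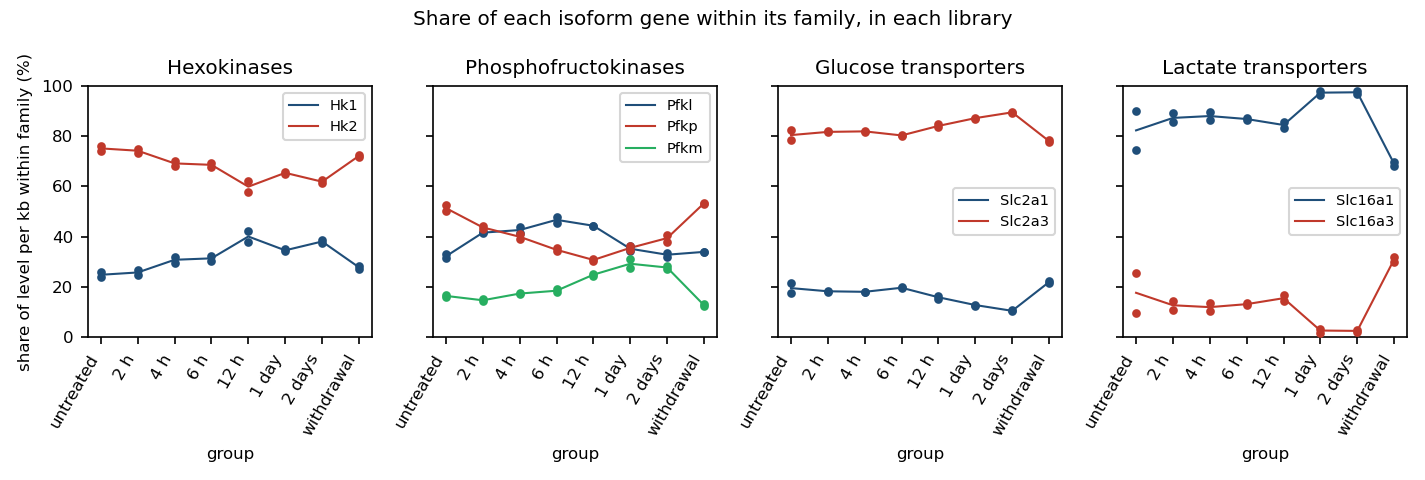
Share in percent (vertical axis) of each gene in the summed per-kilobase level of its family, by group (horizontal axis), for hexokinases, phosphofructokinases, glucose transporters and monocarboxylate transporters; points are libraries and lines join the means. Hk1, Pfkm and Slc2a3 gain share under auxin, and Pfkp and Slc16a3 lose it. After withdrawal Hk1, Pfkp and Slc16a3 lie above both untreated shares, and Pfkm and, by little, Slc2a3 below both.

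Of the 4 transporter genes, 1 glucose transporter rose at 2 days and the other 3 genes fell. Slc2a3 (the glucose transporter GLUT3) had 19219 and 20709 untreated, 20637 and 20723 after 12 h, 25938 and 32202 after 1 day, and 33245 and 34701 after 2 days. At 1 and 2 days all 4 libraries were above all others, and the log2 change at 2 days was 0.77 ± 0.08 (adjusted p = 5e-06), after 0.53 at 1 day (adjusted p = 0.00019). It had been called lower at 6 h (-0.25 ± 0.08, adjusted p = 0.035), a call that was lost in several alternatives. Slc2a1 (GLUT1) went from 4352 and 3621 to 3284 and 3271, a log2 change of -0.28 ± 0.09 (adjusted p = 0.027). That call was lost without untreated replicate 1 (adjusted p = 0.25) or without either library of 2 days. Per kilobase, Slc2a3 rose from 78.4% and 82.5% of the summed level of these 2 genes to 89.3% and 89.7%.

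Slc16a3 and Slc16a1 encode the monocarboxylate transporters MCT4, which exports lactate from glycolytic cells and is a HIF target, and MCT1. Slc16a3 showed the largest change of any member. Its values were 359 and 973 untreated, from 348 to 551 through 12 h (8 libraries), 31.5 and 51.6 after 1 day, and 23.5 and 38.8 after 2 days. It was not called through 12 h, and then had a log2 change of -3.84 ± 0.37 at 1 day (adjusted p = 5e-06) and -4.25 ± 0.37 at 2 days (adjusted p = 1.1e-06). The 4 libraries of 1 and 2 days lay far below all others, and the 2 untreated libraries were the most discordant pair of any untreated member. Slc16a1 went more gradually from 3369 and 2897 to 2202 and 2108 (12 h) and then 1193 and 1268 (2 days). Its log2 change was -0.54 at 12 h (adjusted p = 0.00031), -0.98 at 1 day and -1.34 ± 0.09 at 2 days (adjusted p = 8.1e-08).

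Bnip3 and Pdk1 fell most among the HIF targets at 2 days. Pdk1 encodes pyruvate dehydrogenase kinase, which blocks entry of pyruvate into the citric acid cycle. Untreated libraries held 1629 and 2249, those of 2 h 1946 and 2581, those of 4 h 1194 and 1373, those of 6 h 1126 and 1071, those of 12 h 994 and 998, and those of 2 days 745 and 964. From 4 h onwards all auxin libraries were below both untreated ones. The log2 change was -0.58 ± 0.17 at 4 h (adjusted p = 0.033), -0.80 at 6 h (adjusted p = 0.0049) and -1.17 ± 0.17 at 2 days (adjusted p = 0.0001). The call at 4 h was lost without untreated replicate 2 (adjusted p = 0.22) and without either library of 4 h.

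Bnip3, for a mitochondrial protein that promotes mitophagy, had 338 and 645 normalized counts untreated. It had 154 and 220 after 4 h, 63.4 and 76.1 after 1 day, and 151 and 147 after 2 days. All of these lay below the lower untreated library. Its log2 change was -1.34 ± 0.26 at 4 h (adjusted p = 0.0036), -2.73 at 1 day (adjusted p = 4.1e-06) and -1.64 ± 0.26 at 2 days (adjusted p = 0.00019). Vegfa, an angiogenic growth factor, went from 284 and 230 to 165 and 150, a log2 change of -0.69 ± 0.19 (adjusted p = 0.0087), which was not called without untreated replicate 1 (adjusted p = 0.065) or without replicate 2 of 2 days (0.062).

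The oxygen-sensing hydroxylases did not move together. Egln3, a prolyl hydroxylase induced by HIF, went from 150 and 171 to 98.6 and 95.4 at 2 days, without overlap, a log2 change of -0.72 ± 0.17 (adjusted p = 0.0044). Egln1, the main prolyl hydroxylase acting on HIF, had 332 and 277 untreated and 386 and 344 at 2 days, a log2 change of 0.26 ± 0.13 (adjusted p = 0.11). Per the same test Ero1l, an oxidase of disulfide formation in the endoplasmic reticulum, fell from 708 and 769 to 527 and 504 (log2 change -0.52 ± 0.11, adjusted p = 0.0014).

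Some HIF targets rose. Kdm3a, a histone H3 lysine 9 demethylase, stood at 4031 and 4058 untreated and at 5336 and 5468 at 2 days, a log2 change of 0.42 ± 0.06 (adjusted p = 0.00011). Its course was not steady, with 5414 and 5060 at 4 h, and 4078 and 3807 at 12 h, where it was not called against untreated. P4ha2, a collagen prolyl hydroxylase subunit, went from 92.8 and 142 to 271 and 242, a log2 change of 1.15 ± 0.32 (adjusted p = 0.01). The P4ha2 call was lost without untreated replicate 1 (adjusted p = 0.088) or without replicate 1 of 2 days (0.062). P4ha1, its paralog, had a log2 change of 0.31 (adjusted p = 0.054), Ndrg1, a stress-responsive differentiation gene, of 0.13 (0.55), Pfkfb3, which makes the activator of phosphofructokinase, of 0.09 (0.73) and Ankrd37 of -0.38 (0.34).

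The courses of these less affected targets also differed before 2 days. Ndrg1 was higher at 4 h, with 245 and 259 against 128 and 180 untreated (log2 change 0.73 ± 0.16, adjusted p = 0.0084), and was not called against untreated at any other time under auxin. That call was lost without untreated replicate 1 (adjusted p = 0.054) or replicate 2 of 4 h (0.058). Pfkfb3 stood at 496 and 497 at 2 h against 315 and 280 untreated, and at 221 and 236 at 12 h. At 12 h it was lower than at 2 h by a log2 value of -1.12 ± 0.19 (adjusted p = 0.00079), a call that held in every alternative.

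Hif1a itself changed little. Untreated libraries held 2765 and 3163, those of 2 h 3401 and 3702, those of 12 h 3206 and 2900, those of 1 day 2717 and 2419, those of 2 days 2365 and 2358, and those of withdrawal 2653 and 2597. The value at 2 days, below both untreated libraries, was called lower by a log2 value of -0.32 ± 0.09 (adjusted p = 0.0074), and the call was lost without untreated replicate 2 (adjusted p = 0.074). No other comparison with untreated called Hif1a. The HIF alpha protein is regulated mainly by degradation, and protein was not measured here.

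**Figure D4:**
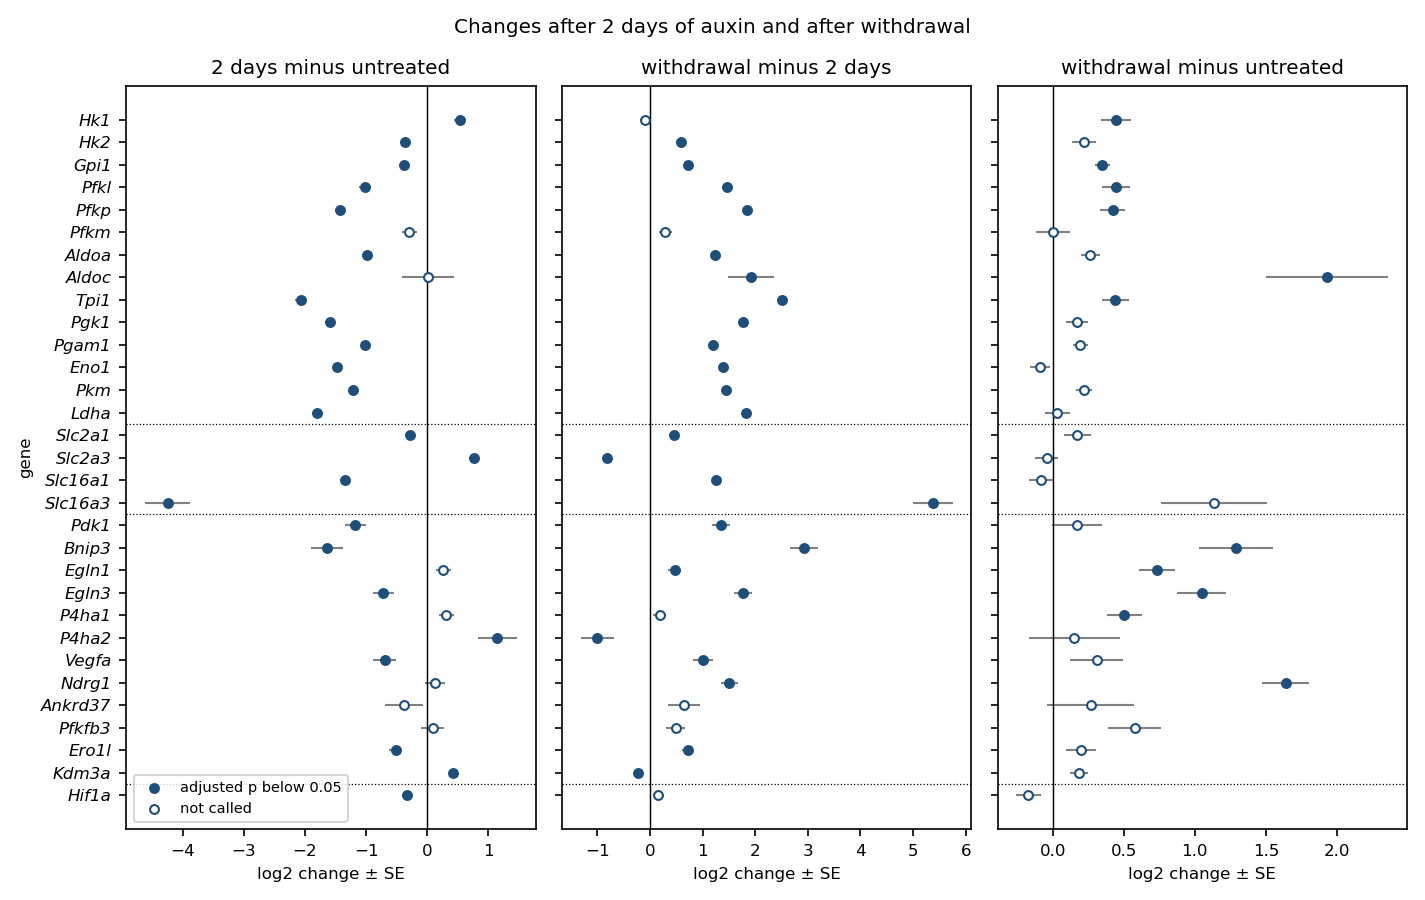
Log2 change ± SE (horizontal axis) of every member (rows) in 3 comparisons, 2 days minus untreated, withdrawal minus 2 days and withdrawal minus untreated; filled points are called at an adjusted p below 0.05. Most enzymes lie left of 0 at 2 days, right of 0 on withdrawal against 2 days, and slightly right of 0 for withdrawal against untreated.

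After 2 days without auxin most enzymes had risen again. No untreated or continued-auxin group is labelled for that later time, so auxin removal and time in culture cannot be told apart. Against 2 days of auxin, 22 of the 31 members rose and 3 fell, where 41.3% of all genes were called, 22.2% higher and 19.1% lower. The withdrawal libraries were above both libraries of 2 days for 27 members and below both for 4, beside 38.3% and 37.3% of all genes. Among the enzymes 12 of 14 rose and 0 fell, with a median log2 change of 1.41, and among the HIF targets 7 of 12 rose and 2 fell, with a median of 0.68. The comparisons of withdrawal with 2 days and of 2 days with untreated share the libraries of 2 days, so a fall and a return are not independent of each other.

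Tpi1 rose most among the enzymes, to 6503 and 6570, a log2 change of 2.51 ± 0.10 (adjusted p = 3.4e-09). Aldoc rose from 77.7 and 66.7 to 269 and 281 (1.92 ± 0.43, adjusted p = 0.0029) and Pfkp to 6481 and 6816 (1.85 ± 0.09, adjusted p = 8.2e-09). In none of these did the groups overlap. The enzymes not called were Hk1, with 1832 and 1793 after withdrawal (log2 change -0.09, adjusted p = 0.52), and Pfkm (0.29, adjusted p = 0.066). Together the 14 enzymes took 1.52% and 1.58% of all normalized counts after withdrawal, above both untreated libraries.

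The transporters reversed as well. Slc16a3 reached 1232 and 1365, a log2 change of 5.38 ± 0.37 (adjusted p = 2e-07) from 2 days, and Slc16a1 reached 2919 and 2994 (1.26 ± 0.09, adjusted p = 1.6e-07). Slc2a1 rose by 0.45 ± 0.09 (adjusted p = 0.0017), to 4370 and 4586. Slc2a3 fell to 19247 and 19477, a log2 change of -0.81 ± 0.08 (adjusted p = 3.7e-06), which placed it near its untreated values.

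Of the HIF targets, Bnip3 rose by 2.93 ± 0.26 on the log2 scale (adjusted p = 1.5e-06), to 1074 and 1214. Egln3 rose by 1.76 ± 0.17 (adjusted p = 3.8e-06), to 329 and 335, and Ndrg1 by 1.51 ± 0.16 (adjusted p = 8.7e-06), to 441 and 508. For each of these 3 genes both withdrawal libraries were above all 14 others. The 2 that fell were those that had risen, P4ha2 (-1.0 ± 0.32, adjusted p = 0.024) and Kdm3a (-0.23 ± 0.06, adjusted p = 0.0086). Both calls, and the rise of Egln1 (0.47 ± 0.13, adjusted p = 0.0086), were lost without replicate 2 of 2 days, and that of P4ha2 without any 1 of the 4 libraries compared. The other 22 of the 25 calls held in all alternatives.

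Several members stood higher after withdrawal than before auxin. Against untreated, 11 of the 31 members were called higher and 0 lower, where 2.79% of all genes were called, 1.72% higher and 1.07% lower. These were 6 of 14 enzymes, 0 of 4 transporters and 5 of 12 HIF targets, with class medians of 0.24, 0.07 and 0.41 on the log2 scale against -0.01 over all genes. An overshoot, meaning a call above both untreated and 2 days, was found for 9 members, 5 enzymes (Gpi1, Pfkl, Pfkp, Aldoc and Tpi1) and 4 HIF targets (Bnip3, Egln1, Egln3 and Ndrg1), and for 0.532% of all genes. Both withdrawal libraries were above all 14 others for 19 of the 31 members, namely 10 enzymes, 2 transporters and 7 HIF targets, and below all 14 for 0. Over all genes these shares were 4.22% and 3.96%. The withdrawal libraries were above both untreated libraries for 22 members (20.7% of all genes) and below both for 1, Hif1a (22.7%). Because the members were chosen with earlier results known, these counts carry no test.

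Ndrg1 had the clearest overshoot. Its 441 and 508 normalized counts after withdrawal exceeded the highest of the 14 other libraries, 259, and the log2 change from untreated was 1.64 ± 0.16 (adjusted p = 0.00026). Egln3, with 329 and 335 against 150 and 171 untreated, was higher by 1.05 ± 0.17 (adjusted p = 0.0077), and Egln1, with 507 and 505 against 332 and 277, by 0.73 ± 0.13 (adjusted p = 0.008). For both prolyl hydroxylases the withdrawal libraries were above all others. Bnip3, at 1074 and 1214 against 338 and 645, was higher by 1.29 ± 0.26 (adjusted p = 0.019). P4ha1, at 569 and 565 against 386 and 414, was higher by 0.50 ± 0.12 (adjusted p = 0.047) but was not called against 2 days.

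The overshoot of the enzymes was smaller in fold, apart from Aldoc. Gpi1 stood at 14045 and 14522 against 11469 and 10975 untreated (log2 change 0.35 ± 0.05, adjusted p = 0.005), and Pfkp at 133% of untreated (0.42 ± 0.09, adjusted p = 0.02). Pfkl (0.44 ± 0.10, adjusted p = 0.031) and Tpi1 (0.44 ± 0.10, adjusted p = 0.031) were also higher in both libraries. Aldoc had 269 and 281 against 50 and 101 untreated, a log2 change of 1.93 ± 0.43 (adjusted p = 0.031). Hk1 was called higher (0.45 ± 0.10, adjusted p = 0.038) but had been so under auxin already. By comparison Ldha was at 102% of untreated (adjusted p = 0.89) and Eno1 at 93.7% (0.55). Slc16a3 had 1232 and 1365 against 359 and 973, which was not called (1.13 ± 0.37, adjusted p = 0.12).

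These calls against untreated depended on which libraries were in the fit. The count of 11 became 2 without withdrawal replicate 1 (Gpi1 and Ndrg1) and 1 without withdrawal replicate 2 (Ndrg1), where 0.502% and 0.517% of all genes were called. It was 9 without untreated replicate 1 and 12 without untreated replicate 2, beside 8.28% and 2.86% of all genes. It became 1 (Ndrg1, adjusted p = 0.049) without the 8 libraries of 2 to 12 h, beside 0.112% of all genes. With the 2 groups fitted alone it was 0, beside 0.00749%, and the adjusted p of Ndrg1 was 0.19. The overshoot count of 9 became 2, 1, 1 and 0 without withdrawal replicate 1, without replicate 2, without the early libraries and with the 2 groups alone. The medians stayed between 0.22 and 0.28 for the enzymes and between 0.39 and 0.47 for the HIF targets in these and all other alternatives, whereas that of the transporters was 0.17 without untreated replicate 1 and 0.03 without untreated replicate 2. Untreated replicate 2 was above replicate 1 for 20 of the 31 members, by a median log2 value of 0.16, against 6231 of all 13355 genes.

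Some enzyme genes have near-identical copies elsewhere in the genome, among which reads may be divided differently by a counting program. Of the 50-base windows of the Eno1 transcript, 72.2% also occur in another gene, mainly Eno1b. The corresponding share was 68% for Pgk1, 41.5% for Pgam1, 34.4% for Pkm, 21.9% for Bnip3, 19.3% for Gpi1, 16.6% for Ldha, 13.5% for Aldoa and 7.51% for Tpi1. At 2 h Eno1 was at 78.0% of untreated while Eno1b was at 108%, and their sum was at 89.2%. At 4 h Eno1 was at 77.4%, Eno1b at 102.6% and the sum at 86.6%. At 6 h the values were 73.6%, 97.5% and 82.4%. The calls of Eno1 from 2 to 6 h are therefore uncertain. At 2 days Eno1 was at 35.9%, Eno1b at 38.0% and the sum at 36.7%. The fall at 2 days was thus seen in both genes and in their sum. Pgk1-rs7, the copy of Pgk1, held 168 normalized counts untreated and 52.8 at 2 days, beside the 14328 and 4736 of Pgk1.

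The rest of the pathway was read from 4 further lists of 143 genes, of which 118 were tested. At 2 days 31 of these rose and 28 fell, 50% against the background of 44.8%, and their median log2 change was 0.02. Among other genes of glycolysis and pyruvate use, 10 of 38 rose and 8 fell. Eno3, the muscle-type enolase (log2 change -2.22 ± 0.19), Pck2, the mitochondrial enzyme that makes phosphoenolpyruvate (-1.63 ± 0.16), and Eno1b (-1.40 ± 0.07) fell most. Those rising most were Fbp2, a fructose bisphosphatase, which works against phosphofructokinase (3.06 ± 0.55), Pdk4, another pyruvate dehydrogenase kinase (2.17 ± 0.26), and Pfkfb2 (1.45 ± 0.21). Gapdh, the enzyme after triosephosphate isomerase, went from 108132 ± 2790 to 75725 ± 2949 (SD, n = 2 each), a log2 change of -0.51 (adjusted p = 0.00016). The pyruvate dehydrogenase kinases Pdk1 and Pdk4 therefore moved in opposite directions.

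In the pentose phosphate pathway, which branches from glycolysis to make NADPH and ribose, 3 of 12 rose and 3 fell at 2 days, 50% against the 44.8% of all genes. Those that fell were Tkt, transketolase (log2 change -0.92), G6pdx, its entry enzyme glucose-6-phosphate dehydrogenase (-0.70), and Pgd (-0.45). Prps2, which makes phosphoribosyl pyrophosphate, was higher by 0.57. Among the regulators of HIF 3 of 21 rose and 7 fell, 47.6% in all, which is also near the background. Epas1, which encodes the alternative alpha subunit HIF-2 alpha, rose from 236 ± 38 to 501 ± 40 (SD, n = 2 each), a log2 change of 1.09 ± 0.13 (adjusted p = 1.7e-05). Os9 (1.05) and Crebbp (0.68), a coactivator of HIF, rose too, and Tceb1 (-0.65, elongin C of the VHL ligase) and Hsp90aa1 (-0.56) fell.

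Other HIF targets were divided, with 15 of 47 higher, 10 lower and a median log2 change of 0.21 at 2 days. The called share was 53.2%, against 44.8% of all genes, 21.0% higher and 23.8% lower. Ddit4, an inhibitor of mTORC1 that also responds to other stresses, rose by 1.97 ± 0.11, and Plod2, a collagen lysyl hydroxylase, by 1.92 ± 0.11. Loxl2 (-2.36 ± 0.32), Angptl4 (-0.96 ± 0.14) and Kdm2b (-0.73 ± 0.10) fell most. As among the 12 members of that class and over all genes, rises and falls were thus present side by side.

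After withdrawal, 10 of the 118 genes were higher than untreated and 1, Rpe of the pentose phosphate pathway (-0.36), was lower. The background was 2.79%. Of these 11 calls, Epas1 and Tfrc alone remained without the 8 libraries of 2 to 12 h, those 2 and Plod2 without either withdrawal library, and 0 with the 2 groups fitted alone. With the length and GC trend removed, 17 genes were called instead. Of those Eno3, Ldhb, Pdha1, Rpe, Hsp90aa1 and Hmox1 were lower and the rest higher. The Rpe call was also lost with no filter, with upper quartile scaling and with the replicate block. Epas1 was at 777 ± 33 (SD, n = 2), higher than untreated by 1.72 ± 0.13 on the log2 scale (adjusted p = 5.5e-05), and was called above 2 days as well (0.63, adjusted p = 0.0016). Hif1a was not called in either comparison. Among other HIF targets 7 of 47 were higher and 0 lower, led by Bhlhe40 (1.2), Nfil3 (1.07) and Plod2 (0.83). Pdk4 (1.57) and the phosphoglucomutase gene Pgm2 (0.81) were the 2 of 38 other glycolysis and pyruvate genes that were higher.

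The stem cell label was checked against 9 marker genes, all in the table. Their summed level lay between 111432 and 121586 in the untreated libraries, 120959 and 123887 at 2 days, and 128837 and 130762 after withdrawal. At 2 h it was 109824 and 110077, and from 4 to 12 h between 98792 and 104481, all below both untreated libraries. At 2 days 4 of the 9 rose (Nanog, Klf4, Tdgf1 and Tfcp2l1) and 2 fell (Pou5f1, to 80.3% of untreated, and Zfp42), where 21.0% of all genes were called higher and 23.8% lower. Among markers of other lineages at 2 days, 3 of 5 tested for primitive endoderm (Gata6, Dab2 and Lama1), 1 of 5 for trophoblast (Tfap2c) and 2 of 4 for neural cells (Nes and Neurod1) rose, and 0 of 3 for mesoderm and 0 of 2 for fibroblasts did. Lower calls were those of 2 of the trophoblast markers (Eomes and Krt8), Tubb3 of the neural ones and Thy1 of the fibroblast ones. The summed primitive endoderm level was 508 and 1293 untreated, from 2007 to 2187 at 2 to 6 h, 1313 and 1374 at 12 h, 2643 and 2899 at 2 days, and 1077 and 1166 after withdrawal, most of it from Lama1. Gata6 itself was at 17.5 at 2 days. The part of these lineage genes in the changes of the 31 members was not tested.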

How the data were processed

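The deposited values are a signal per gene, read counts that the authors normalized, as the table's name and its values, which are not whole, show. The submitters' processing notes name Trim Galore, STAR, RSEM, DESeq2 and build mm10 (GRCm38), without versions or roles. The sources used here do not give the gene annotation. Depth was estimated from the smallest values. In 1884 genes that have a single annotated transcript, 72.6% to 99% of values up to 20 steps lay within 0.1 step of a whole number of steps, where 1 step is the worth of 1 read. In the remaining genes it was 36.1% to 44.9%, so whole reads were not recovered. Normalization to a common scale hides any change in total RNA per cell.

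The values were taken without rescaling to log2(value + 1), a scale on which changes of low genes are understated. Genes with a mean of at least 10 were fitted in 1 model of group means with limma 3.58.1 (R 4.3.3, intensity trend, 8 residual degrees of freedom). Benjamini-Hochberg adjustment was over 13355 genes per comparison. Simulated data were used to test the code. Times, doses and replicate numbers come from the labels. The members and lists were chosen with earlier results of these data known, so counts and medians of a list carry no test. Statistics were given for all of the 31 members, in each class for up to 3 called in either direction per comparison, for Hif1a and for members that overshoot. From each further list up to 3 called genes in either direction with a mean of at least 50 are named, at 2 days and after withdrawal. Gapdh was named after its values were seen. Some genes that this rule allows are not reported here.

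Alternatives were a pseudocount of 5, no filter, rescaling by trimmed means of M values or upper quartiles, replicate as a block, the 2 groups fitted alone, removal of a length and GC trend, and leaving out each library. Leaving out the 8 libraries of 2 to 12 h was added after the data were seen. Gene positions, lengths and copies are from GENCODE M21, which held 14467 of the gene identifiers and all 31 members, and promoters are from RefSeq (GRCm38.p6).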

Additional observations from a re-analysis of the deposited data

How the results depend on the processing

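No called member changed direction in any alternative. Of 148 calls of a member in a comparison, 148 held with a pseudocount of 5, 148 with no filter, 147 with trimmed means, 143 with upper quartiles, 140 after removal of the length and GC trend and 107 with the 2 groups fitted alone. Of 80 calls, 66 held without the 8 libraries of 2 to 12 h, and of 592 repeats with 1 library left out, 459. With the 2 groups fitted alone, members called fell from 5 to 1 at 2 h (3.06% of all genes called), from 11 to 2 at 4 h (5.47%), from 10 to 4 at 6 h (10.6%), from 20 to 13 at 1 day (9.13%) and from 11 to 0 after withdrawal (0.00749%), rose from 5 to 10 at 6 h against 2 h (17.0%), and the overshoot count fell from 9 to 0. That fit has 2 residual degrees of freedom. Without the libraries of 2 to 12 h, 1 member was called after withdrawal (0.112% of all genes) and 1 overshot. With 1 library left out, counts of members called ranged from 0 to 8 (2 h), 5 to 11 (4 h), 5 to 11 (6 h), 14 to 16 (12 h), 19 to 21 (1 day), 22 to 23 (2 days), 1 to 12 (withdrawal against untreated), 22 to 24 (withdrawal against 2 days), 0 to 1 (4 h against 2 h), 2 to 3 (6 h against 2 h), 14 to 16 (12 h against 2 h), and 1 to 12 for the overshoot. The lone library left in a group is then assumed to vary like the other groups. The causes were not tested. Same-numbered libraries did not visibly deviate together, with 28 pair correlations between -0.061 and 0.066. This cannot show whether same-numbered samples were collected or processed together, which the labels do not give. With the replicate block 146 of the 148 calls held, and 9 members rather than 11 were called for withdrawal against untreated. With 2 libraries a group, changes of low genes such as Aldoc and Ankrd37 were measured with a wide error.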
